A study of Rattus norvegicus with 11 samples.

Results

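Immediate early genes are genes whose transcription is switched on within minutes of a stimulus, before any new protein has to be made. Their family was taken here as 10 genes, Fos, Junb, Egr1, Egr3, Egr4, Nr4a1, Arc, Ier2, Btg2 and Dusp1, found among the 13903 genes of the array that could be given a symbol through their RefSeq accession. All 10 were found, each with 1 probe in 1 spot.

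Sensation of the face runs through neurons whose cell bodies, wrapped in satellite glia, lie in the trigeminal ganglion (TRG). In male Wistar rats, 50 μl of complete Freund's adjuvant (CFA, killed mycobacteria in oil, 1 mg/ml) was given under the skin of the whisker pad on 1 side under ketamine and xylazine, and ganglia were taken on day 7. The 6 CFA ganglia are those of the injected side of rats 1, 2, 3, 5, 6 and 8, and the 5 control ganglia are the contralateral ones of rats 1, 2, 3, 5 and 6, so the controls come from inflamed animals and no ganglion of an uninjected or saline-injected rat was analysed here. Each ganglion was hybridised to 1 single-colour array, and the sources used here state no age for the rats.

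In neurons, the entry of calcium and the activity of kinases switch on these genes through promoter elements such as the CArG box, bound by serum response factor, and the cyclic AMP response element, bound by CREB. Their messages are short-lived, and many of the proteins are transcription factors that act on later genes. In sensory ganglia and in the dorsal horn they are widely used as marks of recent noxious or inflammatory input. They are also switched on in glia, endothelium and immune cells.

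The promoters are shown because the inducing signals act there. RefSeq (assembly GRCr8) held a promoter for 7 of the 10 members, Btg2, Dusp1, Egr1, Egr4, Ier2, Junb and Nr4a1; Fos, Egr3 and Arc had none in the table. The 250 bases before the start of each gene were searched for the CArG box, for the cyclic AMP response element TGACGTCA and for its shorter form TGACG, or CGTCA on the other strand, which also lies inside each full element. The CArG box stood in 1 of 7 members, against 1.50% of 33469 promoters, and the full cyclic AMP response element in 3 of 7, against 1.59%. The shorter form stood in 7 of 7 members, against 18.2% of promoters. Stretches of 5 members are printed from 5′ to 3′ in the direction of the gene, with CArG boxes (Egr1), full cyclic AMP response elements (Ier2, Btg2, Dusp1) or the shorter form (Egr4) in capitals.
Egr1, chr18:26736953-26737024, + strand: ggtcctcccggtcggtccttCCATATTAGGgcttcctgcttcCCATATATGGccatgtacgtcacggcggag
Ier2, chr19:40399287-40399334, + strand: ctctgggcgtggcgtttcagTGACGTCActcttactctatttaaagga
Btg2, chr13:48087864-48087911, - strand: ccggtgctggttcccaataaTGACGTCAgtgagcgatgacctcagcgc
Dusp1, chr10:17184709-17184756, + strand: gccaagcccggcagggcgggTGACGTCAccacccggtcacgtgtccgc
Egr4, chr4:119607903-119608015, - strand: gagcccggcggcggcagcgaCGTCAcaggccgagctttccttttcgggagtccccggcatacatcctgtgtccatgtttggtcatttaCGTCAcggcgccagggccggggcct
The 2 boxes of Egr1 lay 105 to 96 and 83 to 74 bases before its start. The full element of Ier2 lay 66 to 59 bases before the start, that of Dusp1 124 to 117 and that of Btg2 201 to 194. A match is a run of letters and was not measured as a bound site.

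The median processed signal of an array lay between 74.6 and 117 in CFA ganglia and between 87.9 and 96.4 in contralateral ganglia, and 68.9% to 82.3% and 71.6% to 82.8% of their spots counted as well above background in the scanner output. Arrays with the same scan time in the scanner output were taken to share a slide, since no slide label was used. That gave 5 slides, and side and slide were largely confounded. Slide 2 carried both sides (CFA rat 1, contralateral rats 5 and 6), slides 1 and 3 only contralateral arrays (rats 3, 1 and 2) and slides 4 and 5 only CFA arrays (rats 2 and 3, and rats 5, 6 and 8). Slides 1 to 3 were scanned on the first of 3 days, slide 4 on the second and slide 5 on the third. Neuronal markers such as Tubb3, Prph, Calca and Trpv1 were well above background on every array, and all 15 neuronal markers measured were. The summed signal of 10 anterior pituitary markers ranged from 4245 to 308080 in CFA ganglia and from 2885 to 107560 in contralateral ganglia.

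No member of the family differed between the sides at the threshold of the study, an unadjusted p of 0.05 or less with an absolute fold change over 2. The count was 0 of 10, against 498 of all 24684 probes (2.02%, 285 higher and 213 lower on the CFA side). By p alone, 1 of 10 members, Ier2, reached 0.05, against 2659 of all probes (10.8%), and 1 of 10 was lower at that level, against 1666 of all probes (6.75%). At an adjusted p of 0.05 (limma with Benjamini-Hochberg adjustment) 0 members and 0% of all probes passed, the smallest adjusted p over all probes being 0.0677. The family's share of calls was therefore near or below that of the array as a whole.

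The sizes of the differences were those of an ordinary probe. The absolute log2 difference of the members had a median of 0.169, against 0.168 over all probes, and the signed median was −0.14, against −0.04. Of the members, 3 were higher and 7 lower on the CFA side, where 57.5% of all probes were lower. In 0 of 10 members did the arrays of the sides fall into ranges without overlap, as they did for 1.2% of all probes. The plot of levels by array shows the overlap for each gene. All levels below are log2 of the quantile normalised signal, a scale on which different probes cannot be compared, and all differences are log2 of CFA over contralateral from limma with their standard errors (SE). Each p of a member is given from limma and from a two-sided exact permutation test, which runs over 462 ways to assign the arrays to the sides and cannot give a p under 0.00216.

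**Figure D1:**
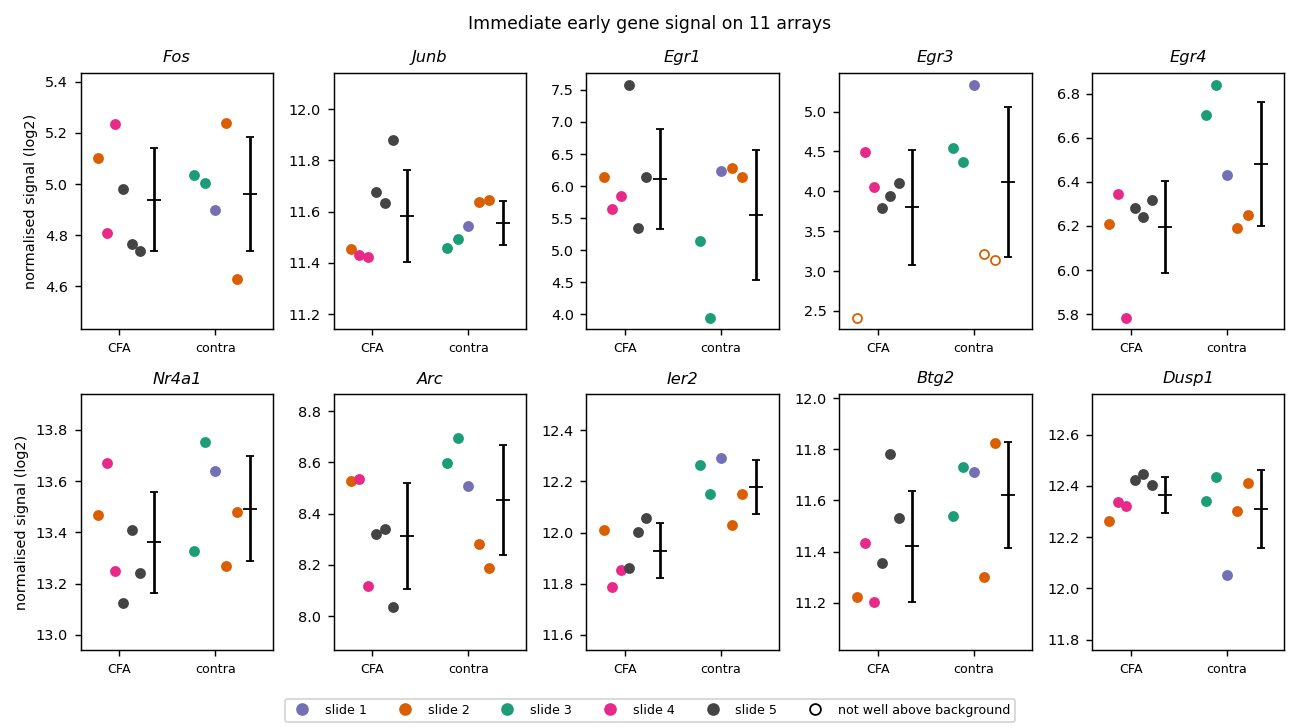
Normalised signal (log2) of the 10 immediate early genes on 11 arrays, CFA ganglia (n = 6) left of contralateral ganglia (n = 5) in each panel. Points are arrays coloured by slide, open where the spot was not well above background, bars give the mean ± SD, and the vertical scale differs between panels but spans at least 1 log2 unit; CFA and contralateral points overlap in every panel, and the 3 open Egr3 points are the 3 arrays of slide 2.

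Fos and Junb encode partners in the AP-1 transcription factor, in which a Fos protein pairs with a Jun protein. Fos, the usual mark of recent neuronal activity, had a level of 4.74 at the lowest, 4.90 at the median and 5.23 at the highest of the CFA ganglia, against 5.04, 5.00, 4.90, 5.24 and 4.63 in the contralateral ganglia of rats 1, 2, 3, 5 and 6. Neither side was high as a group, and the highest and lowest values of all were both contralateral. The Fos signal was low, with a mean at percentile 31.4 of all probes, though it was well above background on every array. The Fos difference was −0.02 (SE 0.13, 95% interval −0.31 to 0.27, limma p = 0.870, adjusted p = 0.952, exact permutation p = 0.857). The interval of its fold ran between 0.807 and 1.20 in the limma fit, which takes no account of slide or rat. Fos was higher on the CFA side in 3 of 5 rats and lower in 2.

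Junb had a level of 11.42, 11.55 and 11.88 at the lowest, median and highest of the CFA ganglia, against 11.46, 11.49, 11.54, 11.64 and 11.65 in the contralateral ganglia of rats 1, 2, 3, 5 and 6. The contralateral values lay inside the CFA range, whose top was rat 8. Its difference was 0.03 (SE 0.10, 95% interval −0.19 to 0.25, limma p = 0.790, adjusted p = 0.921, exact permutation p = 0.790). Within rats the differences of Junb were small, from −0.12 in rat 3 to 0.04 in rat 5.

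The early growth response (Egr) genes encode zinc finger transcription factors that bind the same GC-rich element. They were the most variable members. The SD over the 11 arrays was 0.893 for Egr1, 0.796 for Egr3 and 0.275 for Egr4, against a median of 0.207 over the 10 members, of 0.318 over all probes and of 0.262 over the 17510 probes well above background on every array.

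Egr1, a rapid response gene in most cell types, had a level of 5.35, 5.99 and 7.58 at the lowest, median and highest of the CFA ganglia, against 5.15, 3.95, 6.24, 6.28 and 6.14 in the contralateral ganglia of rats 1, 2, 3, 5 and 6. A single ganglion stood high on the CFA side (rat 5), and on the contralateral side rat 2 was lowest. Contralateral rat 1, at 5.15, was also below every CFA ganglion, and the other ganglia of both sides ran together. The Egr1 difference was 0.56 (SE 0.49, 95% interval −0.52 to 1.65, limma p = 0.277, adjusted p = 0.654, exact permutation p = 0.372), and it was positive in 3 of 5 rats. It was 0.27 without CFA rat 5 and 0.16 without contralateral rat 2. The interval of its fold ran between 0.696 and 3.14, so differences past the fold limit of the study lie inside it.

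Egr3, a closely related factor, stood well above background in 5 of 6 CFA ganglia and 3 of 5 contralateral ganglia. Its level was 2.42, 3.99 and 4.49 at the lowest, median and highest of the CFA ganglia, against 4.54, 4.36, 5.33, 3.21 and 3.14 in the contralateral ganglia of rats 1, 2, 3, 5 and 6. The 3 arrays on which it was not well above background were those of slide 2, with levels of 2.42 to 3.21, below the 3.79 to 5.33 of the 8 arrays of the other slides. The difference was −0.32 (SE 0.46, 95% interval −1.32 to 0.69, limma p = 0.499, adjusted p = 0.783, exact permutation p = 0.550). With the scan day as a block it was −1.70 (adjusted p = 0.913), past the study's threshold, and the CFA array behind that value is the array of rat 1 on slide 2. Without CFA rat 1 it was −0.04, and without contralateral rat 3 it was −0.01.

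Egr4, a further factor of that group, had a level of 5.78, 6.26 and 6.35 at the lowest, median and highest of the CFA ganglia, against 6.70, 6.84, 6.43, 6.19 and 6.25 in the contralateral ganglia of rats 1, 2, 3, 5 and 6. The contralateral ganglia on slides 1 and 3 were above every CFA ganglion, while those on slide 2 were among them. The difference was −0.29 (SE 0.15, 95% interval −0.61 to 0.04, limma p = 0.0770, adjusted p = 0.489, exact permutation p = 0.0974), with 4 of 5 rats lower. Within slide 2, where 1 CFA array meets 2 contralateral ones, the Egr4 difference was −0.01.

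Nr4a1 encodes the orphan nuclear receptor Nur77, a transcription factor that works without a known ligand. Its level was 13.12, 13.33 and 13.67 at the lowest, median and highest of the CFA ganglia, against 13.33, 13.75, 13.64, 13.27 and 13.48 in the contralateral ganglia of rats 1, 2, 3, 5 and 6. The sides overlapped over most of their range. The difference was −0.13 (SE 0.12, 95% interval −0.41 to 0.14, limma p = 0.314, adjusted p = 0.677, exact permutation p = 0.292), and within slide 2 it was 0.10.

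Arc is not a transcription factor but a protein of the synapse, whose message in the brain is carried into dendrites. Its level was 8.04, 8.33 and 8.54 at the lowest, median and highest of the CFA ganglia, against 8.60, 8.70, 8.51, 8.28 and 8.19 in the contralateral ganglia of rats 1, 2, 3, 5 and 6. As for Egr4, the contralateral arrays of slide 2 were lower, at 8.19 to 8.28, than those of slides 1 and 3, at 8.51 to 8.70. The Arc difference was −0.14 (SE 0.13, 95% interval −0.43 to 0.15, limma p = 0.303, adjusted p = 0.671, exact permutation p = 0.286), and within slide 2 it was 0.30.

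Ier2, a small nuclear protein of serum-stimulated cells, was the member with the smallest p. Its level was 11.79, 11.93 and 12.06 at the lowest, median and highest of the CFA ganglia, against 12.26, 12.15, 12.29, 12.03 and 12.15 in the contralateral ganglia of rats 1, 2, 3, 5 and 6. The ranges met between 12.03 and 12.06, where contralateral rat 5 and CFA rat 8 lie. The difference was −0.25 (SE 0.083, 95% interval −0.43 to −0.07), a fold of 0.842, with limma p = 0.0124, adjusted p = 0.389 and exact permutation p = 0.00649. The CFA side was lower in 5 of 5 rats, from −0.15 in rat 6 to −0.44 in rat 3. It failed the correction over all probes and did not reach the fold limit of the study.

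The Ier2 difference kept p at or under 0.05 in 21 of 23 alternative settings, leaving out each array included. The exceptions were the slide as a block (−0.08), which rests on slide 2 alone, and the scan day as a block (−0.17). The later scan days held only CFA arrays, so the scan day block rests on CFA rat 1 against the contralateral arrays. Of the endothelial markers, 6 of 7 measured had a lower mean on the CFA side, where 57.5% of all probes and 8 of 9 red blood cell and 8 of 11 skeletal muscle markers did. None passed the study's threshold or an adjusted p of 0.05 in limma. At an unadjusted limma p of 0.05 there were 2 of 7, both lower. Of all probes 10.8% reached that level, and 6.75% were lower at it. The 2 markers differed by little within slide 2 (−0.0099 for Tek, −0.0084 for Cldn5). Over all arrays Tek (the angiopoietin receptor) differed by −0.30 (adjusted p = 0.394, exact permutation p = 0.00866). Cldn5 (a tight junction protein) differed by −0.27 (adjusted p = 0.459, exact permutation p = 0.0411). The summed endothelial signal ranged from 17753 to 22016 in CFA ganglia and from 21490 to 25350 in contralateral ganglia, and Cdh5 was well above background on no array. The part of the endothelial markers in the Ier2 difference was not tested. In whole ganglia fewer cells of a type and less RNA per cell cannot be told apart.

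Btg2 encodes an antiproliferative protein that takes part in the removal of poly(A) tails. Its level was 11.20, 11.40 and 11.78 at the lowest, median and highest of the CFA ganglia, against 11.54, 11.73, 11.71, 11.30 and 11.82 in the contralateral ganglia of rats 1, 2, 3, 5 and 6. The lower values were mostly of the CFA side, but contralateral rat 5 was among them and CFA rat 6 was among the highest. The difference was −0.20 (SE 0.13, 95% interval −0.49 to 0.09, limma p = 0.157, adjusted p = 0.563, exact permutation p = 0.147), with 4 of 5 rats lower.

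Dusp1 encodes the phosphatase MKP-1, which switches off the kinases that induce the family. It was the steadiest member, with an SD of 0.112 over the 11 arrays. Its level was 12.26, 12.37 and 12.45 at the lowest, median and highest of the CFA ganglia, against 12.34, 12.44, 12.05, 12.30 and 12.41 in the contralateral ganglia of rats 1, 2, 3, 5 and 6. Contralateral rat 3 was below all other arrays. The Dusp1 difference was 0.06 (SE 0.086, 95% interval −0.13 to 0.25, limma p = 0.529, adjusted p = 0.799, exact permutation p = 0.517).

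**Figure D2:**
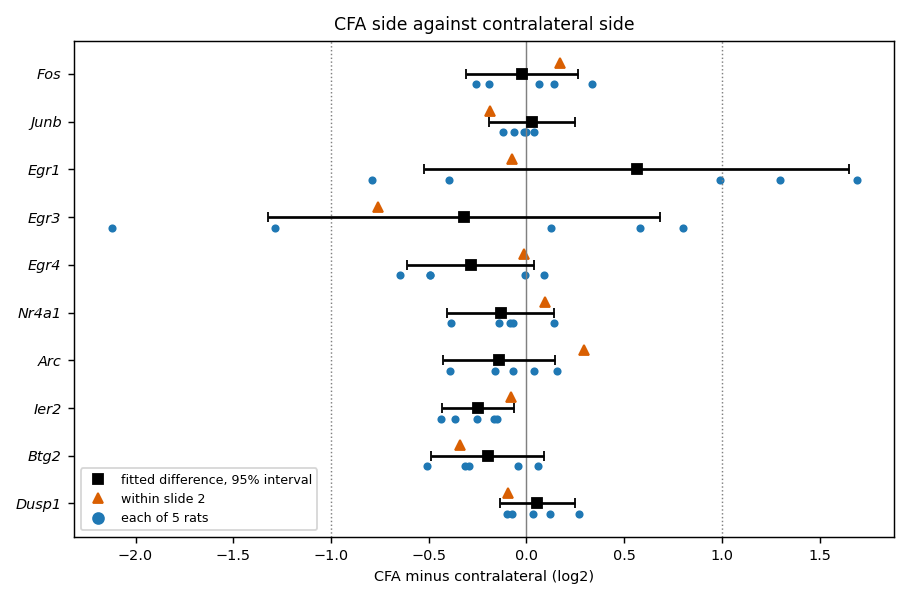
Difference of CFA and contralateral ganglia (log2 of CFA over contralateral, horizontal axis) for each of the 10 genes. Squares with bars are the limma estimate and its 95% interval, triangles the difference within slide 2 (1 CFA and 2 contralateral arrays), circles the differences within 5 rats, and dotted lines the fold limit of 2; the interval of Ier2 (−0.43 to −0.07) lies below 0 and those of the other 9 genes include it.

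The second question was whether the genes vary together between ganglia, as genes driven by a shared signal would. After removal of the group means, Pearson's r between the levels of 2 members over the 11 arrays had a median of 0.007 over the 45 pairs, against a median of 0.038 over all pairs of 17495 probes well above background on every array. It was above 0 in 23 of 45 pairs. An absolute r of 0.7 or more was found in 1 of 45 pairs (2.22%), against 8.34% of all probe pairs. The points share arrays, slides and, for 5 rats, the animal, so these values are a description. Neither the AP-1 partners Fos and Junb, with r of −0.46, nor the Egr genes stood out. Among the latter r was −0.23 between Egr1 and Egr3, −0.47 between Egr1 and Egr4 and 0.35 between Egr3 and Egr4. The highest values were those of Egr4 with Arc (0.68) and of Nr4a1 with Arc (0.62).

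**Figure D3:**
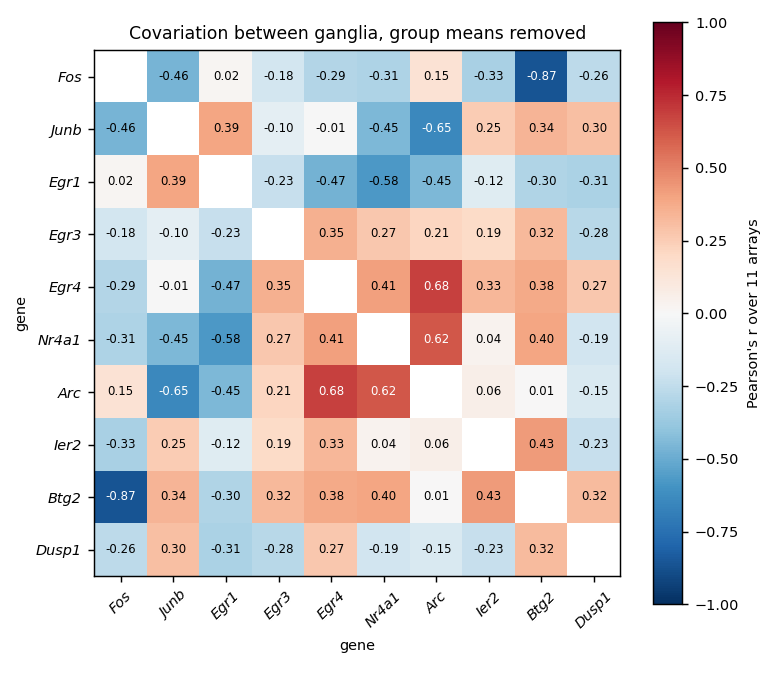
Pearson's r between the levels of each 2 of the 10 genes over 11 arrays after removal of the group means, from −1 (blue) to 1 (red). Positive and negative cells are about equally many (23 of 45 pairs above 0), and the darkest cell is that of Fos and Btg2 (−0.87).

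The lowest r was that of Fos with Btg2, −0.87, and 1.08% of all probe pairs had an absolute r as high. Of the 9 relations of Fos that were computed, it was the only one with a small p, Pearson's r having a permutation p of 0.00067 and Spearman's rho, −0.93, a permutation p of 9.0e-05, both two-sided, unadjusted and open to the shared animals; the other relations had permutation p of 0.113 or more. Without contralateral rats 5 and 6, the arrays farthest from the median of Fos, r was −0.84. It was −0.82 over the 6 arrays of the first scan day and −0.85 over the 6 CFA arrays. It was −0.74 with 75th percentile scaling and −0.67 when the median of each band of 10 array rows was subtracted. With the rat as a replicate block it was −0.61. Running the alternative settings on this pair was added after the data were seen. The summed markers of every cell type list had r of opposite sign with Btg2 and with Fos. With r of −0.87 between the 2 genes, opposite signs were largely set in advance, so their count is no result. For macrophage markers the values were only 0.006 with Btg2 and −0.15 with Fos. The r with Btg2 and with Fos was 0.69 and −0.46 for neutrophil markers and 0.58 and −0.77 for anterior pituitary markers. It was 0.52 and −0.49 for fibroblast markers, and −0.42 and 0.40 for central nervous system markers. The part of any of these markers in the relation was not tested.

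**Figure D4:**
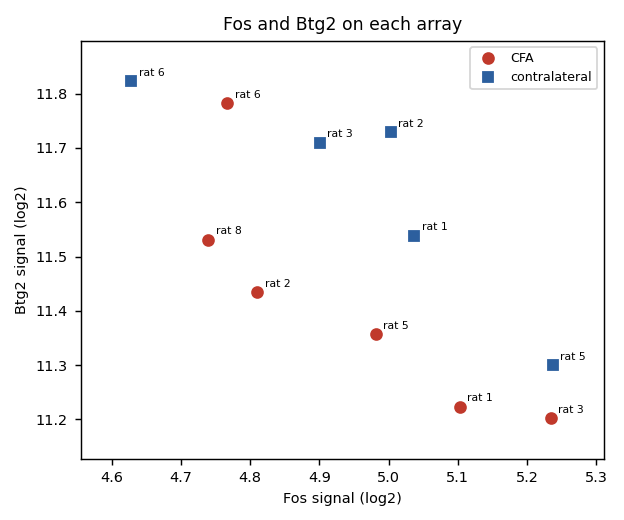
Btg2 signal (log2, vertical axis) against Fos signal (log2, horizontal axis) on each of 11 arrays, circles for CFA and squares for contralateral ganglia, labelled by rat. Arrays high in Fos are low in Btg2 on both sides, with r of −0.87 after removal of the group means.

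The genes whose pattern was most like that of the family were looked for among 11088 other genes well above background on every array, by r over the 11 arrays with the mean deviation of the 9 members that were well above background throughout. The 10 highest were Ndufv3 (0.92), Slc26a10 (0.85), Npy1r (0.84), Malsu1 (0.84), Dnajb3 (0.83), Cib2 (0.82), Mmachc (0.82), Fkbp1a (0.81), Ephb1 (0.81) and Smyd4 (0.81). None of them is an immediate early gene of the wider list. The mean is largely that of Egr1, the most variable of the 9, whose own r with it was 0.74, while Junb had 0.44 and the other 7 lay between −0.27 (Fos) and 0.20 (Egr4). The first gene of the wider list was Rgs1, at rank 723 with r of 0.52.

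The wider list held 44 further immediate early genes, of which 38 were measured. None passed the study's threshold; 14 were higher and 24 lower on the CFA side, where 57.5% of all probes were lower, with a median difference of −0.06, against −0.04 over all probes. At an unadjusted p of 0.05 there were 3 of 38, 1 higher (Rgs1) and 2 lower (Trib1, Tiparp), against 10.8% of all probes, so the list was not above the rate of the array. The neuronal activity gene Npas4 and the prostaglandin synthase gene Ptgs2 were well above background on no array of either side. Atf3, the classical mark of injured sensory neurons, differed by 0.00, and Jun by −0.07.

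Trib1, a pseudokinase that steers other proteins to degradation, had the smallest p of the list. Its level was 4.61, 5.26 and 5.61 at the lowest, median and highest of the CFA ganglia, against 6.19, 6.14, 6.58, 6.20 and 5.64 in the contralateral ganglia of rats 1, 2, 3, 5 and 6. The sides did not overlap, though CFA rat 3 and contralateral rat 6 were close. The difference was −0.92 (SE 0.20, limma p = 0.00093, adjusted p = 0.239, exact permutation p = 0.00216), a fold of 0.529. Within slide 2 it was −0.51 and with the scan day as a block −0.74, both resting on CFA rat 1 as the only CFA array. With normexp background correction it was −0.37. Without contralateral rat 6 it was −1.05, past the study's threshold and the largest of the 23 alternatives.

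Tiparp, an ADP-ribosyltransferase induced by the aryl hydrocarbon receptor, differed by −0.44 (SE 0.13, limma p = 0.0064, adjusted p = 0.333, exact permutation p = 0.0108). Within slide 2 its difference was 0.08. Rgs1, an inhibitor of G protein signalling, differed by 0.53 (SE 0.21, adjusted p = 0.435, exact permutation p = 0.0108), and within slide 2 by 0.06.

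**Figure D5:**
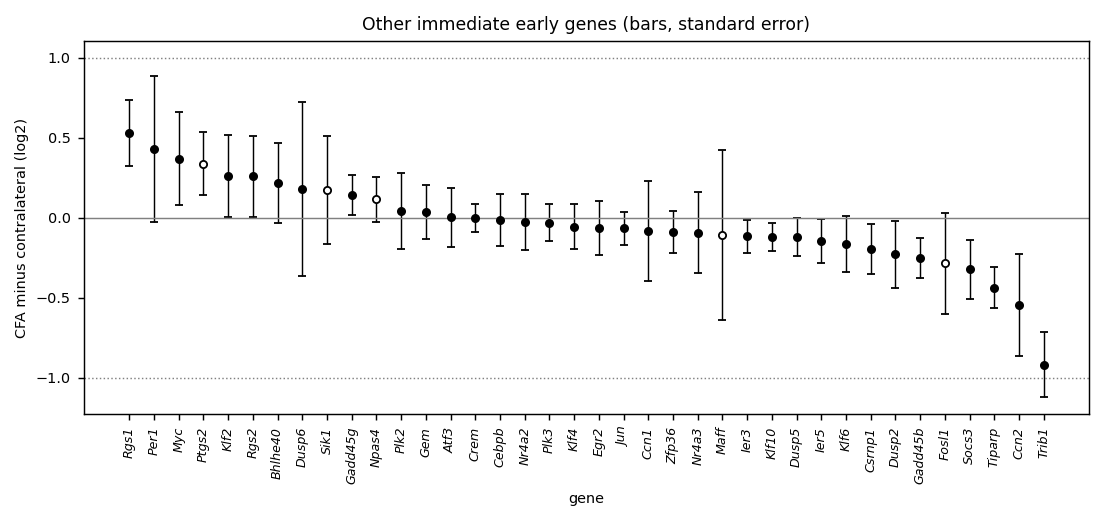
Difference of CFA and contralateral ganglia (log2 of CFA over contralateral, vertical axis) for 38 other immediate early genes, ordered by size. Points are limma estimates with their SE, open where the probe was not well above background on all 11 arrays, and dotted lines mark a fold of 2; all 38 lie between them, with Rgs1 (0.53) at the upper end and Trib1 (−0.92) at the lower end.

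Of the genes of the inducing pathway, the kinases and the serum response and CREB factors, 19 of 28 were measured and none passed the study's threshold, with 10 higher and 9 lower and a median of 0.00. Camk2b, a subunit of the calcium and calmodulin dependent kinase II, differed by 0.28 (SE 0.10, adjusted p = 0.425, exact permutation p = 0.0152) on its brightest probe, and by 0.20 and 0.02 on its other probes.

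Of 12 genes that follow neuronal activity later, 11 were measured and none passed the threshold, with 7 higher and 4 lower and a median of 0.13. Scg2, the precursor of the neuropeptide secretoneurin, had a level of 15.80, 15.93 and 16.03 at the lowest, median and highest of the CFA ganglia, against 15.46, 15.59, 15.36, 15.58 and 15.69 in the contralateral ganglia of rats 1, 2, 3, 5 and 6. Its sides did not overlap. The Scg2 difference was 0.39 (SE 0.082, limma p = 0.00056, adjusted p = 0.219, exact permutation p = 0.00216), and within slide 2 it was 0.27. Inhba, a subunit of activin, had an adjusted p of 0.316 (exact permutation p = 0.0108) but was well above background on no array.

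Heat shock genes, which rise with tissue stress, were measured in 12 of 16 cases. None passed the threshold and none reached an unadjusted limma p of 0.05, with 5 higher and 7 lower and a median of −0.01. The smallest p were those of Hspa5, a chaperone of the endoplasmic reticulum (−0.12, SE 0.073, adjusted p = 0.551, exact permutation p = 0.0346), and of Dnajb4, a co-chaperone (0.53, SE 0.35, adjusted p = 0.564, exact permutation p = 0.188). Within slide 2 the difference of Dnajb4 was −0.60.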

How the data were processed

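The authors deposited the scanner output, linear intensity values from which Agilent Feature Extraction 11.0.1.1 had subtracted the background, not normalised between arrays. The authors also deposited intensities that were quantile normalised across arrays. Of 43553 spots, 1417 controls were left out, outlier spots (1.38%) were set to missing, the log2 processed signal was quantile normalised, and spots of a probe were averaged to 24684 probes. The number of arrays limits the precision. All probes were fitted in limma 3.58.1 under R 4.3.3 with the side as the only term, after the methods of the study, which name no pairing. Accessions were matched to RefSeq symbols, and unmatched genes, Fosb and Homer1 among them, were not analysed here. A gene is represented by its brightest probe. The members and lists were chosen with earlier results of these data known. By rule, all 10 members, the 10 genes most like them, and in each list the genes past the threshold or else the 2 with the smallest p were named, except 1 gene of the inducing pathway that is not reported here; Rgs1, Atf3, Jun, Npas4, Ptgs2 and the markers were added after their values were seen. Correlations and figures were made in Python 3.11.15 with scipy 1.17.1 and matplotlib 3.10.9, with 100000 permutations.

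A rat number shared by a CFA and a contralateral array marks a shared animal. After removal of the group means, the sides of a rat correlated across probes by more than 0.1 in 1 of 5 rats, and for 0 of 5 rats was the CFA array nearest to the contralateral array of that animal, but no rat had both sides on a common slide. Alternatives changed the normalisation, background correction, probe filter, spot flags, array position, batch, pairing and probe choice, and left out each array. The scanner files hold median and not mean spot signals, so the median was used where another background correction was tried.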

Additional observations from a re-analysis of the deposited data

Results flagged for a closer look

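In 3 of the 20 groups of arrays (10 genes on 2 sides), 1 ganglion lay far from the others of its side by Dixon's criterion, which chance meets in about 1 of 20 groups. Egr1 had a level of 7.58 (log2) in CFA rat 5, with the nearest CFA ganglion at 6.14. Egr3 had a level of 2.42 in CFA rat 1, the CFA array of slide 2, where the spot was not well above background, with the nearest CFA ganglion at 3.79. Egr4 had a level of 5.78 in CFA rat 3, with the nearest CFA ganglion at 6.21. The 3 values are of 3 different rats, all are on the CFA side, and no cause was tested.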

How the results depend on the processing

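Over 23 alternatives the count of members past the study's threshold stayed at 0 except with the scan day as a block, which gave 1 (Egr3); leaving out each array gave 0 throughout, and the rat as a replicate block 0. The members' median difference (−0.14) was −0.044 with normexp background correction and −0.045 without background correction, settings that also lowered the share of all probes past the threshold to 0.0648% and 0.190%; over all settings that share reached 3.22%. It was −0.10 with the rat as a replicate block, and without 1 array ranged from −0.19 to −0.07. The median correlation between members (0.007) was 0.165 with the rat as a replicate block and −0.105 to 0.057 without 1 array; it was not computed with the rat as a random effect. Differences near 0 changed sign. Fos was 0.0065 with normexp, 0.17 with the slide as a block, 0.14 with the scan day, 0.018 with the rat block and −0.105 to 0.047 without 1 array. Junb was −6.0e-05 with 75th percentile scaling, −0.034 with normexp, −0.035 without background correction, −0.187 with the slide, −0.10 with the scan day, −0.032 with the rat block and −0.032 to 0.059 without 1 array. Dusp1 was −0.0093 with 75th percentile scaling, −0.021 with row bands subtracted, −0.094 with the slide, −0.045 with the scan day and −0.0079 to 0.088 without 1 array. With the slide as a block Egr1 was −0.073, Nr4a1 0.10, Arc 0.30, Tiparp 0.078, Inhba −0.068 and Dnajb4 −0.60. With the scan day Arc was 0.075, Inhba −0.00082 and Dnajb4 −0.42. The slide block rests on the 3 arrays of slide 2, and the scan day block on CFA rat 1 against the contralateral arrays. The cause of the changes of sign was not tested. Ier2, Egr3, Egr4 and Btg2 stayed below 0 in every alternative that gave a value. With the rat block no member passed the study's threshold. No member changed sides of an unadjusted p of 0.05 with that block, and Ier2 alone stayed under it. In other alternatives Egr4 came under 0.05 in 3 and Btg2 in 1, with limma adjusted p of 0.334 or more. With the slide as a block Egr3 was −0.76. Of the named genes of the lists, Camk2b lost an unadjusted p of 0.05 with the rat block (0.25, adjusted p = 0.507). The Camk2b difference was also 0.18 with 75th percentile scaling, 0.04 with normexp and without background correction, and 0.17 over the mean of its probes. Those settings had a limma p of 0.0981 or more. Without contralateral rat 1 (0.24) or rat 2 (0.22) its limma p was over 0.05 too. Rgs1 and the cell type markers were not run under the alternatives. Signal over background limits Egr3, the Fos signal was low though above background, and the slides limit every comparison of sides.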
